A study of Mus musculus with 6 samples.

Results

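Keratins are the intermediate filament proteins of epithelial cells. A filament is built from heterodimers of a type I and a type II chain, and epithelial cells express characteristic pairs: Krt5 with Krt14 in dividing basal cells of the epidermis, Krt1 with Krt10 once cells leave the basal layer, the Krt25 to Krt28 and Krt71 to Krt74 chains in the inner root sheath that surrounds a growing hair, and the hair keratins in the shaft itself. In mice the type I genes lie in a cluster on chromosome 11 and the type II genes in a cluster on chromosome 15, with the type I gene Krt18 beside the type II cluster.

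The genes described were chosen by symbol and by their measured counts. They were the rows whose symbol is Krt followed directly by a digit, without the Krtap genes of keratin-associated proteins, that held at least 20 UMIs (unique molecular identifiers, each standing for 1 captured RNA molecule) summed over the 3 CD45-negative libraries. That rule chose 42 of 53 keratin rows, 22 of type I, 19 of type II and the keratin-like Krt222, among 32285 genes in all. Krt13, with 22 UMIs, was just inside the limit, and Krt84, with 15, was just outside. Krt6b, Krt34 and Krt72 had 6, 5 and 12 UMIs and were among the 11 rows left out. Krt74 and the hair keratin Krt85 were not analysed here.

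The study took skin from adult female C57/BL6 mice 17 to 18 weeks old in 3 groups, all untreated: wild type, UP_Del without alopecia and UP_Del with alopecia. UP_Del mice lack an enhancer upstream of Il2ra, the gene of the interleukin-2 receptor alpha chain, which is known mainly from T cells. Shaved whole skin without its hypodermis was digested with enzymes, live cells were sorted by the leukocyte marker CD45, and each of the 3 groups gave 1 CD45-positive and 1 CD45-negative library of 5' single-cell RNA counts. The labels do not say how many mice went into a library, so every comparison below sets 1 library against another: no difference could be tested against replicate spread, and all intervals (95%) cover counting error only. The 2 deletion libraries share that allele and differ in hair loss.

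The CD45-negative libraries had 4575 barcodes in wild type, 16751 in UP_Del without alopecia and 7123 in UP_Del with alopecia, of which 3293, 14447 and 4817 were kept, with median depths of 5007, 5444 and 5658 UMIs per cell. Between 7.56% and 30.4% of barcodes failed the filter, mostly for high mitochondrial content, and the library without alopecia had the smallest such share. Pairs of the 6 libraries shared 24 to 228 barcode sequences. Counts are given below as CPM, UMIs per 1000000 UMIs of the cells summed, unless stated. Il2ra itself stood at 240 CPM in wild-type CD45-positive cells, 150 without and 133 with alopecia, and at 0.845, 0.127 and 0.136 CPM among CD45-negative cells.

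Compartments were clusters of cells built without any keratin gene and named from other markers, so each name below means "like" that cell type: interfollicular basal and suprabasal keratinocytes, upper follicle, bulge with outer root sheath, inner root sheath, hair shaft, sebaceous gland and cycling cells. Of the fixed markers, 8 of 8 were found in at least 10% of basal cells in every library, 8 of 10 in suprabasal cells, 7 of 8 in upper follicle cells and 8 or 9 of 9 in the bulge class. By that measure the inner root sheath class was less secure. It had 4, 3 and 6 of its 7 markers at that level in wild type, UP_Del without alopecia and UP_Del with alopecia. The hair shaft class had 6, 6 and 7 of 11. Detection alone does not show that markers are particular to a class. Basal markers summed to 9909, 10283 and 8806 CPM in basal cells, beside 5007, 5452 and 4898 CPM in fibroblasts. Bulge markers summed to 2924, 3470 and 2228 CPM, beside 1704, 1468.5 and 1373 CPM in fibroblasts. Inner root sheath markers summed to 472, 308 and 992 CPM, beside 15.1, 10.7 and 10.2 CPM. Part of the epithelium, 341, 1789 and 553 cells, stayed unnamed.

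The keratins of the inner root sheath, 4 of type I and 2 of type II among the members, were among those that differed by several fold between the libraries. Most of their promoters held a sequence feature that was also found in promoters of some other keratins. Their promoters are shown from RefSeq (GRCm38.p6), 5′ to 3′ on the strand of the gene, which is the minus strand for all 6, from 100 bases before the annotated start to 10 after it, with the letters TATAAA, the core of a TATA box, in capitals. The windows lie on chromosome 11 at chr11:99322942-99323051 (Krt25), chr11:99337956-99338065 (Krt26), chr11:99351109-99351218 (Krt27) and chr11:99374894-99375003 (Krt28), and on chromosome 15 at chr15:101743088-101743197 (Krt71) and chr15:101802351-101802460 (Krt73). The promoter of the basal keratin Krt5 (chr15:101712896-101713005), also on the minus strand, is given for comparison.
Krt25: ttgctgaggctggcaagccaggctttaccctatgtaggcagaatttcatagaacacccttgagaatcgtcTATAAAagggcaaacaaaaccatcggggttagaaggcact
Krt26: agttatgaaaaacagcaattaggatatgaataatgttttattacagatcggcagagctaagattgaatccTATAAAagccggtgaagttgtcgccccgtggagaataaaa
Krt27: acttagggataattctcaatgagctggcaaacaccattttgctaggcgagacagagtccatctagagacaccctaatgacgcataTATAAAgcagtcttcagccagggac
Krt28: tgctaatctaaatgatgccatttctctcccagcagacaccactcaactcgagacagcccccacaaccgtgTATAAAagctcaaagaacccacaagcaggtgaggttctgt
Krt71: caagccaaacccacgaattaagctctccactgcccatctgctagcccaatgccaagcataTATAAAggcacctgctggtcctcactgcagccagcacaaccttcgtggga
Krt73: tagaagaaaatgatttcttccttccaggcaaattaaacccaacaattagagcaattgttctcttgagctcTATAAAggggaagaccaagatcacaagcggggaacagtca
Krt5: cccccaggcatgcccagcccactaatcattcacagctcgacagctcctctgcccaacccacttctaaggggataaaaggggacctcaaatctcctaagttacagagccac

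TATAAA started between 20 and 40 bases before the annotated start in 5 of the 6 inner root sheath promoters, at 30 bases in Krt25, Krt26, Krt28 and Krt73 and at 40 in Krt71. In Krt27 the same letters started 15 bases before the start, outside that range. These distances depend on the start used. The RefSeq starts of Krt27 and Krt73 lay 14 bases before the upstream end of the annotated gene. Counted from that end, Krt27 would fall inside the range and Krt73 outside it. Of the 42 members 27 had a promoter in the table, and 10 of their 28 promoters (35.7%) held TATAAA in that range on the gene's strand, beside 655 of 32851 promoters (1.99%) over all genes. Beside those of the inner root sheath, these were the promoters of Krt10, Krt12, Krt20, Krt31 and Krt32. The Krt5 promoter did not hold these exact letters, but it held GATAAA, which differs in 1 letter, 30 bases before the start. Only exact TATAAA was searched, so such near matches were not counted in any promoter. For 3 of the 28 windows, that of Krt14, that of Krt7 and 1 of 2 of Krt13, the RefSeq start lay more than 200 bases inside the annotated gene, so these windows say nothing of the upstream end of those genes. The letters CTTTGAA with the variant forms CTTTGAT as well as CTTTGTA and also the form CTTTGTT were searched on both strands, since LEF1 and TCF factors, which act in the hair matrix, read such sites. They occurred in 7 of the members' 28 promoter windows of 300 bases (25%), and in 16.9% of all windows. The members' windows were those of Krt25, Krt28, the hair keratins Krt31 and Krt32, the suprabasal keratin Krt2, Krt42 and Krt90. The match of Krt28 lay after the annotated start. Krt26, Krt27, Krt71 and Krt73 of the inner root sheath had no match. None of the members' matches to these letters overlapped a TATAAA match. These are matches of letters, and nothing here measured binding.

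Reads of 5' libraries come from the beginning of a transcript, and some keratins are nearly alike there. Over the first 500 bases of their transcripts, 12 of the 42 members shared more than 5% of their 50-base stretches with another keratin. The share was 64.3% for Krt6a, mostly with Krt6b, 58.8% for Krt33a, 53.0% for Krt81, 50.6% for Krt86, 43.2% for Krt87, 42.4% for Krt31, 37.7% for Krt16, 32.2% for Krt83 and 29.7% for Krt14, where Krt14 and Krt16 shared with each other. It was smaller for Krt5 (12.6%, with Krt6a), Krt25 (8.65%) and Krt27 (6.43%). Counts of these genes are less certain than those of Krt71, Krt73, Krt35, Krt10 and Krt79, which shared none.

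**Figure D1:**
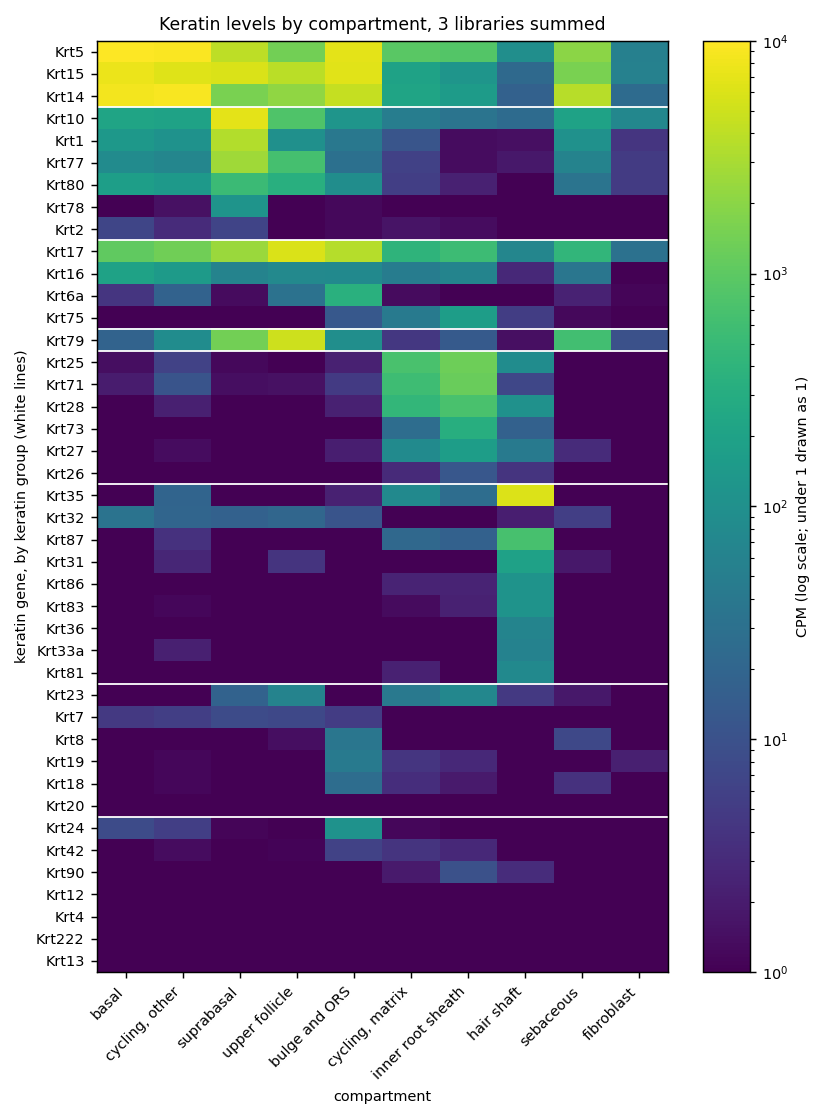
Levels of the 42 keratins (rows) in each compartment (columns), as CPM (log colour scale, values under 1 drawn as 1), with the 3 CD45-negative libraries summed. Basal keratins fill the basal, bulge and suprabasal columns. The inner root sheath keratins are highest in their own column and, Krt26 excepted, next in cycling, matrix-type cells (Krt71 at 1220 and 572 CPM). The hair shaft keratins other than Krt32 are highest in theirs.

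Over all kept cells, keratins made up 1.32% of UMIs in the wild-type library, 2.13% in UP_Del without alopecia and 1.49% in UP_Del with alopecia. The basal keratins Krt5, Krt14 and Krt15 summed to 6273, 15523 and 8420 CPM in that order, and the keratins of the inner root sheath to 519, 73.7 and 582 CPM. The 9 hair shaft keratins summed to 213, 47.4 and 417 CPM. The library without alopecia was thus high in basal keratins and low in follicle keratins, and the library with alopecia lay near the wild type or above it in both follicle groups. At this level, fewer cells of a type and less RNA per cell cannot be told apart, and the 3 comparisons share libraries, so they are not independent of each other.

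With alopecia against without, 21 of 41 keratins with enough UMIs were more than 2-fold higher and 3 more than 2-fold lower, beside 13.0% of all 17880 genes past 2-fold either way. The median log2 ratio of those keratins was 1.14, beside 0.22 over all genes. Without alopecia against wild type, 6 were higher and 20 lower, beside 14.6% of all genes, with a median of -0.92 beside -0.23. With alopecia against wild type, 6 were higher and 3 lower, beside 3.87% of all genes, with a median of 0.35 beside -0.01. Past 1.5-fold in that last comparison were 19, beside 10.3% of all genes. These counts describe genes chosen with earlier results of these data in view. Many keratins are read in the same few cells and so do not count as separate observations. Without the 5 cells holding most UMIs of each keratin, an alternative chosen after seeing the data, the counts were 17 higher and 5 lower, 6 higher and 16 lower, and 5 higher and 2 lower.

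**Figure D2:**
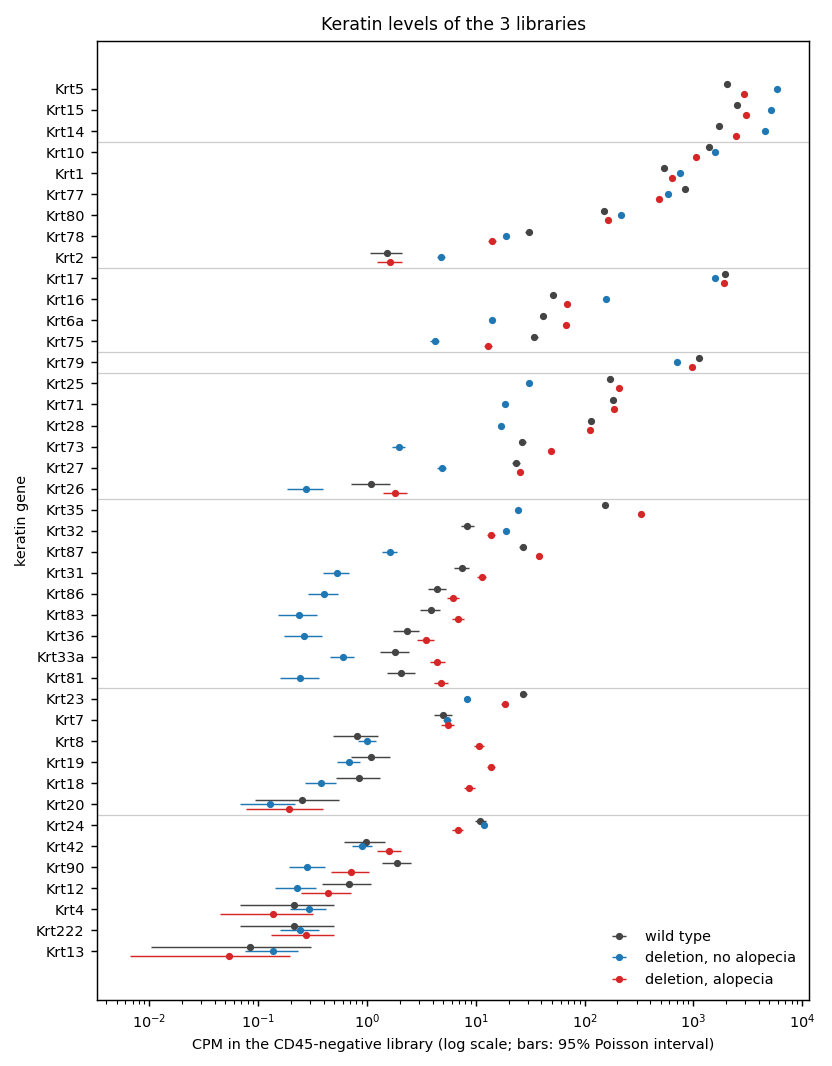
Level of each keratin over all kept cells (CPM, log scale) in the wild-type library, UP_Del without alopecia and UP_Del with alopecia, with exact Poisson intervals for counting error. The inner root sheath and hair shaft keratins of the library without alopecia lie to the left of both other libraries, Krt32 excepted, and its Krt5, Krt14 and Krt15 to the right.

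Among the basal keratins, Krt5, the type II partner of Krt14, was at 2041 CPM in the wild-type library, 5808 without hair loss and 2905 with alopecia. Krt14 was at 1701, 4514 and 2463 CPM. Krt15, a type I keratin of basal and bulge cells, was at 2531, 5200 and 3052 CPM. For all 3 genes the library without alopecia was highest and wild type lowest, and the summed group was 2.47-fold higher (2.46 to 2.49) without alopecia than in wild type and 1.84-fold lower (1.84 to 1.85) with alopecia than without.

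Interfollicular basal cells made up 6.62% of kept wild-type cells, 21.4% without alopecia and 9.61% with alopecia, the same order as the basal keratins. When every library was given the same mix of compartments, the basal group's log2 ratio was 0.43 for without alopecia over wild type and -0.24 for with over without, smaller than the 1.31 and -0.88 of the whole libraries. Within basal cells Krt5 was at 7720 CPM in wild type, 10252 without and 8885 with alopecia, and Krt14 at 6368, 8816 and 6802. Krt15 was at 7291, 7548 and 8457 CPM there, so that it was highest in the library with alopecia, unlike Krt5 and Krt14. In that compartment 2 of 19 measured keratins were more than 2-fold higher and 3 lower with alopecia than without, beside 6.23% of all genes.

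The type I to type II balance of UMIs in basal cells was 1.85 in wild type, 1.68 in UP_Del without alopecia and 1.76 in UP_Del with it. In suprabasal cells it was 1.33, 1.39 and 1.43, and in the upper follicle 1.80, 1.72 and 1.70. In the bulge class it was 2.26, 1.97 and 2.00. In the inner root sheath class it was 1.21, 1.28 and 1.23. Type I exceeded type II UMIs in every epithelial compartment of every library, although the 2 types pair 1 to 1 in a filament. The hair shaft ratio of 5.29, 11.8 and 5.99 lacks Krt85, and UMIs count captured RNA, not protein.

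Krt16 partners Krt6 chains in wounded or stressed epidermis. It was at 51.4 CPM in wild type, 157 without and 68.8 with alopecia, 2.28-fold lower (2.18 to 2.38) with alopecia than without. Basal cells held 40.6% of its UMIs, and a further 29.6% lay in 1 unnamed epithelial cluster, which had its highest level and of which it was the leading gene, along with Slc6a14, Cldn4 and Serpinb2. That cluster held 0.456%, 3.07% and 0.830% of kept cells, and inside it Krt16 was at 1083, 871 and 968 CPM. The cluster thus differed between libraries in its share of cells. It had 15, 443 and 40 cells, so the order of its Krt16 levels rests on few cells in wild type and with alopecia. With an equal mix of compartments the log2 ratio of Krt16 was 1.06 for without alopecia over wild type and -0.73 for with over without, beside 1.61 and -1.19 over the whole libraries.

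Within basal cells Krt16 was at 115, 212 and 164 CPM. The 3 basal clusters with Ptgs2, Fos, Thbs1 or Phlda1 among their leading genes, all genes induced early by stress or by cell dissociation, held 37.6% of basal cells in wild type, 63.1% without and 39.5% with alopecia. Krt16 was at 176, 283 and 290 CPM in those clusters and at 55.5, 61.1 and 43.9 CPM in the 4 other basal clusters, a split that was made after the values were seen. The clusters within each set were not alike. With the libraries summed, Krt16 was at 603 CPM in cluster 31 and 251 in cluster 26 but 40.8 in cluster 30, which had Fos among its leading genes, and of the others cluster 25, led by Fst with Arc, Ier3 and Myc, also early-response genes, was at 141. The part of such early-response cells in the Krt16 levels was not tested. Krt14 and Krt16 share stretches of sequence, as given above, so some Krt16 UMIs in Krt14-rich cells are uncertain.

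Krt17, a type I keratin of the upper follicle and outer root sheath that is also induced by stress, was at 1970 CPM in wild type, 1583 without and 1915 with alopecia. It was the leading keratin of the upper follicle class, at 6613, 5233 and 7375 CPM. Krt79, a type II keratin of the upper follicle and sebaceous duct, followed at 5165, 4605 and 5808 CPM in that class and at 1128, 702 and 963 CPM over the libraries. For both genes the library without alopecia was lowest in the class, by 1.41-fold (1.39 to 1.43) for Krt17 and 1.26-fold (1.24 to 1.28) for Krt79 against the library with alopecia. Krt5 went the other way there, at 707, 1912 and 808 CPM. The make-up of the class also differed between libraries. Cluster 32, with Krt5 at 3356 CPM over the libraries summed, held 9.52%, 17.9% and 6.25% of its cells. Cluster 4, with Krt5 at 147 CPM and Krt17 at 9626 CPM, held 41.2%, 30.2% and 45.3%. Cluster 11, with Krt5 at 2140 CPM, held 14.3%, 18.3% and 18.9%. The part of this mix in the differences was not tested. In this class 0 of 15 measured keratins were more than 2-fold higher with alopecia than without and 3 were lower, beside 6.94% of all genes, and Krt5 and Krt16 were 2 of the lower ones. The Krt16 log2 ratio there, -1.38, was -0.25 with another clustering seed.

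In suprabasal cells Krt10, the type I chain of the differentiating epidermis, was at 7670 CPM in wild type, 6768 without and 5944 with alopecia. Its partner Krt1 was at 3001, 3412 and 3839 CPM, so that over the class the 2 chains were in opposite order in the 3 libraries. Cluster 12 of the class was poor in Krt1, at 548 CPM beside Krt10 at 5084 CPM with the libraries summed. It held 33.8%, 11.8% and 17.6% of the class's UMIs, and its part in this order was not tested. Krt77, another type II keratin of the suprabasal layers and of sweat ducts, was at 4593, 2387 and 2421 CPM, 1.90-fold lower (1.85 to 1.95) with alopecia than in wild type. Krt78 was also highest in wild type, at 209, 101 and 109 CPM. Both deletion libraries were thus below wild type for Krt77 and Krt78.

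The basal keratin Krt5 was at 1650, 4743 and 2739 CPM in suprabasal cells, 2.87-fold higher without alopecia than in wild type (2.80 to 2.96). With each cell thinned to 1000 UMIs, 30%, 59.2% and 36.5% of suprabasal cells held a Krt5 UMI, beside 47.3%, 71.1% and 51.9% unthinned. In fibroblasts, which should lack the gene, the thinned shares were 1.22%, 3.08% and 0.605%, from cells with median depths of 3365 to 3925 UMIs against 8580 to 9517 in suprabasal cells. With alopecia against without, 1 of 19 measured keratins was more than 2-fold higher in suprabasal cells and 2 were lower, beside 6.09% of all genes.

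At double the clustering resolution the log2 ratio of Krt5 without alopecia over wild type, 1.52, was 0.93, and that of Krt5 with alopecia over wild type, 0.73, was -0.15, so that the second direction was not kept.

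The suprabasal class did not hold the same clusters in the 3 libraries. A cluster led by Zfp750, a regulator of epidermal differentiation, held 9.54% of the class in wild type, 40.8% without and 18.5% with alopecia. It had 29, 684 and 77 cells, so its wild-type levels rest on few cells. Inside it Krt5 was at 2189, 6368 and 5122 CPM, lowest in wild type. Over the class, the Krt5 direction with alopecia over wild type was not kept at double the resolution, as given above. Krt77 was at 4304, 1520 and 1475 CPM inside this cluster, again lower in both deletion libraries. A second cluster, cluster 12, held 27%, 14.2% and 20.6% of the class. It carried most of the class's Krt17 and Krt79, at 11533, 14592 and 19234 CPM and at 7263, 8990 and 10157 CPM. Its non-keratin markers scored 2.24 for suprabasal and 0.33 for upper follicle. By these 2 keratins it was like the upper follicle, at 14600 and 8707 CPM with the libraries summed, beside 9626 and 7375 in upper follicle cluster 4. Krt79 was at 13.5 to 25.5 CPM in the other suprabasal clusters. The suprabasal levels above include cluster 12.

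The bulge and outer root sheath class held 196, 1101 and 350 cells. Krt15, which marks the bulge where follicle stem cells lie, was at 7130 CPM in wild type, 7627 without and 4054 with alopecia. Krt14 was in the reverse order, at 5048, 3134 and 6756 CPM. Krt6a, a type II keratin of the companion layer and the inner bulge, was at 576, 142 and 646 CPM, and 4.55-fold higher (4.21 to 4.92) with alopecia than without. Krt24, a keratin of the bulge, was at 132, 133 and 56.7 CPM, and its log2 ratio with over without alopecia, -1.23, was -0.64 with cells assigned by marker UMIs. In this class 9 of 24 measured keratins were more than 2-fold higher with alopecia than without and 6 lower, beside 13.9% of all genes. Krt8, Krt18 and Krt19 were among the 9, and 2 cells held most of their UMIs with alopecia, as given below.

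**Figure D3:**
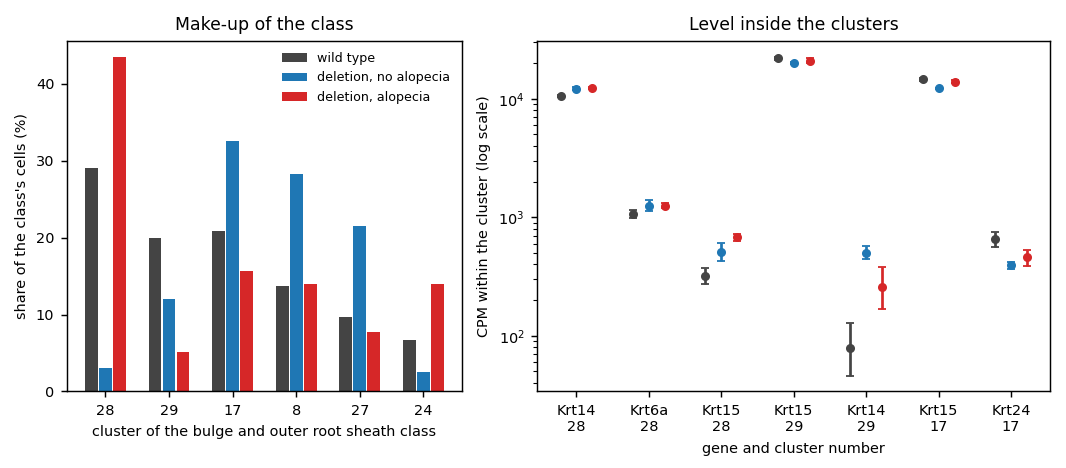
Left, bars of the share of bulge and outer root sheath cells in each of its 6 clusters (%). Right, levels of named keratins inside clusters 28, 29 and 17 (CPM, log scale, with exact Poisson intervals for counting error) in each library. Cluster 28 took up 29.1%, 3.0% and 43.4% of the class in wild type, UP_Del without alopecia and UP_Del with alopecia, while Krt6a inside it lay between 1063 and 1254 CPM.

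The make-up of the class differed between libraries in the same order. Cluster 28, led by Cmah and Wfdc18 with Krt6a among its leading genes and none of the class's own markers among the top 10, held 57, 33 and 152 cells, or 29.1%, 3.0% and 43.4% of the class. Inside it Krt6a was at 1063, 1254 and 1249 CPM and Krt14 at 10527, 12192 and 12300 CPM, while Krt15 was at only 319, 514 and 678 CPM. Cluster 29, led by Cacna1c and Ramp1 with Fgf18 and Cd34, held 39, 133 and 18 cells, and there Krt15 was at 22017, 19910 and 20998 CPM and Krt14 at 79.3, 503 and 258 CPM. Cluster 28 was thus high in Krt14 and low in Krt15 in every library and cluster 29 the reverse, and Krt6a and Krt14 in cluster 28 and Krt15 in cluster 29 differed between libraries by less than 1.5-fold. Cluster 17, led by S100a4, Krt24 and Cd34, held Krt24 at 652, 395 and 458 CPM and Krt15 at 14624, 12281 and 13892 CPM. The clusters were singled out after the values were seen.

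The inner root sheath is the moulding tube of the growing hair, and its keratins are known from growing follicles. Krt71, a type II chain, was at 183 CPM in the wild-type library, 18.7 without and 187 with alopecia. Krt25, a type I chain, was at 170, 31.1 and 207 CPM. Krt28, type I, was at 115, 16.9 and 112 CPM. All 3 were close in wild type and in the library with alopecia and low in the library without.

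Krt73, type II, was at 26.8, 1.96 and 48.7 CPM, Krt27 at 23.3, 4.86 and 25.2 CPM, and Krt26, the scarcest, at 1.10, 0.274 and 1.82 CPM. As a group the 6 genes were 7.90-fold higher (7.69 to 8.11) with alopecia than without, 7.04-fold lower (6.84 to 7.24) without alopecia than in wild type, and 1.12-fold higher (1.10 to 1.15) with alopecia than in wild type. The inner root sheath class made up 4.92% of kept cells in wild type, 0.983% without and 4.07% with alopecia. With an equal mix of compartments the group's log2 ratio was 1.17 with alopecia over without, beside 2.98 over the whole libraries.

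Inside the class the group was still lowest without alopecia. Krt71 was at 1158, 565 and 1710 CPM, Krt25 at 1090, 746 and 1848 CPM and Krt28 at 695, 407 and 917 CPM. Krt73 was at 237, 72.5 and 552 CPM, 7.62-fold higher (6.41 to 9.13) with alopecia than without. These sizes depended on how cells were assigned to the class. The log2 ratio of Krt71 with over without alopecia, 1.6, was 0.49 with another clustering seed, 0.54 at double the resolution and 3.70 with cells assigned by their own marker UMIs, and that of Krt73, 2.93, was 1.6, 1.53 and 4.73 in the same order. With alopecia against without, 5 of 18 measured keratins were more than 2-fold higher in the class and 0 lower, beside 6.32% of all genes. Cells thinned to 1000 UMIs held a Krt71 UMI in 28.4%, 17.1% and 28.6% of the class (40.7%, 33.6% and 45.9% unthinned), beside 0.152%, 0% (0 of 2176 cells, which allows up to 0.138%) and 0.101% of fibroblasts.

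The class was made of 2 clusters. Cluster 16, led by Krt73, Krt71 and Krt25 with Cdh6, held 59, 27 and 84 cells, which is 1.79%, 0.187% and 1.74% of kept cells. Inside it Krt71 was at 3881, 3935 and 4620 CPM and Krt28 at 1765, 1046 and 2100 CPM. Krt25 was at 2518, 2768 and 4629 CPM and Krt73 at 896, 701 and 1781 CPM, both highest with alopecia. Over the whole libraries Krt71 was 10.0-fold higher (9.55 to 10.6) with alopecia than without, and inside this cluster it was within 1.5-fold in all 3 libraries.

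Cluster 15, with Dcn (a gene known mainly from fibroblasts) and Krt75 among its leading genes, held 103, 115 and 112 cells, or 3.13%, 0.796% and 2.33% of kept cells. Krt71 was at only 178, 177 and 449 CPM there, Krt25 at 575, 513 and 643 CPM and Krt28 at 309, 333 and 405 CPM. Cluster 16 made up 36.4%, 19.0% and 42.9% of the class, in the order of the class's Krt71 level. Another set of cells with these keratins was the cycling, matrix-type class (84, 98 and 79 cells), in which Krt71 was at 660, 273 and 780 CPM and Krt25 at 580, 703 and 866 CPM.

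**Figure D4:**
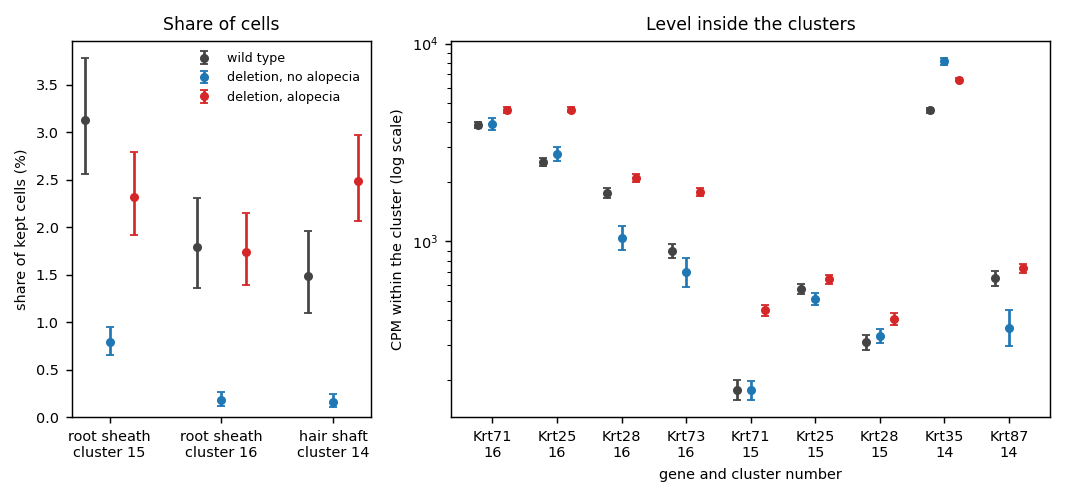
Left, the share of kept cells (%, with exact binomial intervals) in the inner root sheath clusters 15 and 16 and the hair shaft cluster 14 in each library. Right, levels of named keratins inside those clusters (CPM, log scale, with exact Poisson intervals). The shares of the inner root sheath clusters are lowest in UP_Del without alopecia, while Krt71 inside cluster 16 lies between 3881 and 4620 CPM in all 3 libraries.

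Krt75 is a type II keratin of the companion layer, which lies between the inner and outer root sheaths, and it did not follow the others. It was at 34.5 CPM in the wild-type library, 4.18 without and 12.9 with alopecia, 3.09-fold higher (2.71 to 3.54) with alopecia than without but below wild type. In the inner root sheath class it was at 284, 142 and 87.1 CPM, lowest with alopecia, but its log2 ratio with over without alopecia, -0.70, was 0.30 with no doublet removal, 0.67 with cells assigned by marker UMIs and -2.14 with another clustering seed. In cluster 16 it was at 685, 400 and 1.14 CPM, the last from 1 UMI.

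Few cells carried that difference. In cluster 16, 4 wild-type cells with at least 10 Krt75 UMIs held 428 of 439 UMIs, and 4 cells of the library without alopecia held 79 of 80. Those cells also held 365 and 177 UMIs of Krt17 with 173 and 124 of Krt71. They held 0 of Krt73 and only 2 and 1 of Krt25, which were also among the cluster's leading genes. In the library with alopecia no cell of cluster 16 reached 10 Krt75 UMIs, and 11 cells elsewhere did. Of those, 6 were in cluster 15, 4 in the cycling, matrix-type class and 1 in the bulge class. The Krt75 difference in cluster 16 thus rests on 4 cells in each of the other libraries.

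The hair shaft class held 49, 24 and 120 cells, which is 1.49%, 0.166% and 2.49% of kept cells, so levels inside it are given without ratios. Krt35, a type I hair keratin of the matrix and cuticle, was at 155 CPM over the wild-type library, 24.4 without and 328 with alopecia. It was 13.4-fold higher (12.8 to 14) with alopecia than without and 2.11-fold higher (2.03 to 2.19) than in wild type. Inside the class it was at 4593, 8122 and 6577 CPM, so that the library with the fewest such cells was not the lowest in level. In cells thinned to 1000 UMIs it was found in 73.5%, 75% and 83.3% of the class.

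Krt87, a type II hair keratin, was at 27, 1.62 and 38.3 CPM over the libraries and at 651, 367 and 731 CPM in the class. Krt86, Krt83 and Krt81, also type II, lay between 0.235 and 6.85 CPM and were each lowest without and highest with alopecia. The hair shaft group as a whole was 8.80-fold higher (8.52 to 9.09) with alopecia than without, 4.49-fold lower (4.31 to 4.67) without alopecia than in wild type and 1.96-fold higher (1.90 to 2.02) with alopecia than in wild type. With equal compartments, the log2 ratio of the summed group with over without alopecia was -0.08, beside 3.14 over the whole libraries. That sum is mostly Krt35, which held 12040 of its 15318 UMIs with alopecia and stood at -0.30 with equal compartments. The other hair shaft keratins all stayed above 0 there, from 0.20 for Krt32 to 3.53 for Krt31. Those equal mixes rest on 24 cells in the library without alopecia.

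Krt32, listed with the hair keratins, did not behave as the others. It was at 8.36, 19.1 and 13.8 CPM, and 50.9% of its UMIs were in basal cells, where it was at 33.8 CPM with the libraries summed. Krt31, a hair cortex keratin, was at 7.39, 0.528 and 11.3 CPM, but 1 cell held 163 of 175 UMIs in wild type and 1 cell held 366 of 416 with alopecia. For Krt33a the 5 highest cells held 83.7% of UMIs in wild type and 89.0% with alopecia, against 8.2% without. Krt31 and Krt33a thus were read in very few cells of these libraries, and their ratios rest on those cells.

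**Figure D5:**
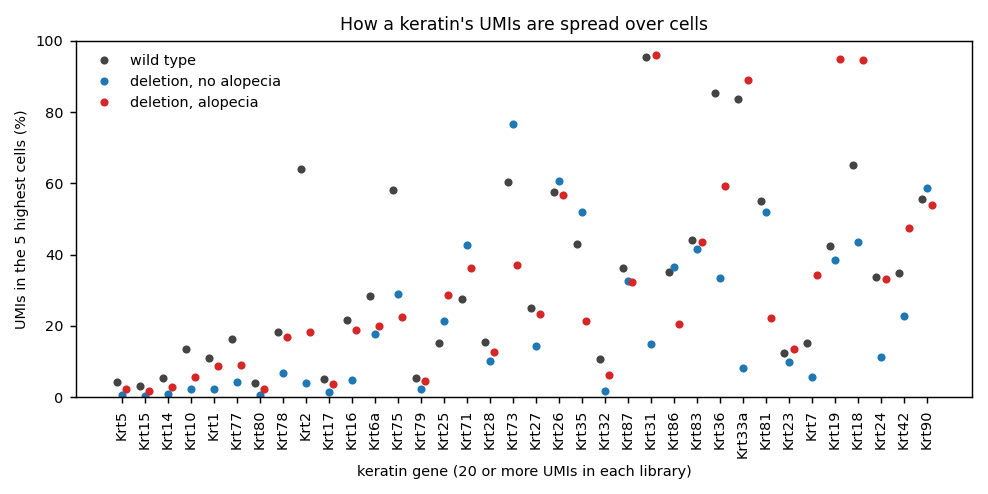
Share of each keratin's UMIs that the 5 highest cells of a library hold (%), for keratins with at least 20 UMIs in each library. Krt31 stands at 95.4% in wild type and 95.9% with alopecia, and Krt18 and Krt19 at 94.7% and 94.9% with alopecia, while 5 cells hold 4.28% of Krt5 in wild type.

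Krt8, Krt18 and Krt19 are keratins of simple epithelia and, in skin, of Merkel cells and the bulge. Krt8 was at 0.803 CPM in wild type, 1.01 without and 10.7 with alopecia, Krt18 at 0.845, 0.381 and 8.73 CPM, and Krt19 at 1.10, 0.684 and 13.8 CPM. In the library with alopecia, 2 cells of the bulge class held 352 of 393 Krt8 UMIs, 292 of 321 Krt18 UMIs and 474 of 507 Krt19 UMIs. These 2 cells had 0 UMIs of Krt20, Atoh1 and Sox2 and 8 of Piezo2, the other markers of Merkel cells looked at being Chga and Rab3c, both at 0. Without the 5 highest cells of each gene the group of 6 simple keratins was 1.53-fold higher with alopecia than without, instead of 3.58-fold. Krt23 and Krt7, of the same list, were spread more widely: Krt23 was at 27.4, 8.34 and 18.4 CPM and Krt7 at 5.03, 5.46 and 5.49 CPM.

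The remaining members were scarce. Krt24 was described with the bulge, and Krt42, Krt90, Krt12, Krt4, Krt222 and Krt13 were each under 2 CPM in every library. Of the 42 members, 39 were highest in an epithelial compartment. Krt12 and Krt20 were highest in dermal papilla cells, at 4.83 and 1.3 CPM, and Krt222 in blood endothelial cells, at 2.37 CPM. Krt2, a late differentiation keratin, was at 1.52, 4.78 and 1.63 CPM, Krt36 at 2.32, 0.264 and 3.48 CPM, and Krt80, of the suprabasal list, at 149, 218 and 164 CPM. In the sebaceous gland class (13, 89 and 30 cells) Krt14 was the leading keratin, at 2775, 4062 and 3136 CPM, followed by Krt5, Krt15 and Krt79. In cycling cells outside the matrix type, Krt5, Krt14 and Krt15 led, as in basal cells.

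A list of 30 keratin partners and regulators was read beside the members: plakins and desmosome genes, cornified envelope genes and transcription factors. With alopecia against without, 7 of 29 measured were more than 2-fold higher and 2 lower, beside 13.0% of all genes past 2-fold, with a median log2 ratio of -0.07 beside 0.22 over all genes. Without alopecia against wild type, 0 were higher and 9 lower, beside 14.6% of all genes, with a median of -0.03 beside -0.23. With alopecia against wild type 1 was higher and 3 lower, beside 3.87% of all genes, with a median of -0.11 beside -0.01. Lef1, Dlx3, Hoxc13, Msx2 and Cux1, like the summed follicle keratin groups, were lowest without alopecia. Dlx3, Msx2 and Cux1 were highest in wild type, and Lef1 and Hoxc13 with alopecia. Other listed factors, such as Foxn1, Gata3 and Sox9, are not given here. Lef1 was at 114 CPM in wild type, 21.4 without and 121 with alopecia, Dlx3 at 53.8, 9.49 and 44.9 CPM, Hoxc13 at 35.3, 9.67 and 42.5 CPM, Msx2 at 43.7, 10.8 and 34.4 CPM, and Cux1 at 301, 115 and 240 CPM.

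Tchh, the trichohyalin gene of the inner root sheath, was at 11.4, 8.44 and 41.7 CPM and Tgm3, a transglutaminase that cross-links it, at 9.17, 3.55 and 15.4 CPM, both highest with alopecia. Of the envelope genes, Lor was at 11, 12.9 and 4.24 CPM and Flg2 at 1.18, 1.23 and 0.163 CPM, both lowest with alopecia. The desmosome gene Dsp, which anchors keratin filaments, was level at 1285, 1326 and 1347 CPM. Trp63, the regulator of the basal layer, was at 352, 461 and 401 CPM, in the order of the basal keratins.

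Cells that should lack keratins show how much free RNA or mixed droplets add. In fibroblasts Krt5 was at 4.69 CPM in wild type, 98.7 without and 10.9 with alopecia, Krt14 at 5.69, 41.1 and 9.28 CPM, and Krt10 at 60.3, 86.2 and 54.8 CPM. In lymphatic endothelial cells Krt5 was at 3.12, 622 and 5.05 CPM. In melanocytes it was at 416, 3457 and 971 CPM, where the 5 melanocyte markers summed to 12008, 5829 and 14347 CPM. The library without alopecia thus had the most Krt5 outside the epithelium as well as inside it, and its part in the Krt5 level of suprabasal and upper follicle cells was not tested.

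The follicle keratins were low in fibroblasts: Krt71 was at 0.529 CPM and Krt35 at 0.925 CPM with the libraries summed. The mural class with alopecia (34 cells) had Krt17 at 3005 CPM and Krt79 at 1003 CPM, the 2 leading keratins of the upper follicle. In the CD45-positive libraries the members summed to 1933, 2343 and 2298 CPM, and 27.2%, 27.1% and 26.5% of barcodes held a keratin UMI. Not all of this followed the CD45-negative levels. Among CD45-positive cells Krt83 stood at 47.0, 34.2 and 34.7 CPM, above its 3.84, 0.235 and 6.85 CPM among CD45-negative cells.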

How the data were processed

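Single-cell RNA was counted in 3 CD45-negative and 3 CD45-positive libraries. The authors deposited UMI counts for each gene in each called cell, made with Cell Ranger 7.1.0 and build mm10 per the submitters' processing notes; the release of the annotation is not given in the sources used here. They were whole numbers over 32285 genes, of which 32158 identifiers were found in GENCODE vM21, the source of transcripts and coordinates.

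Barcodes with under 500 UMIs, under 300 genes or over 10% mitochondrial UMIs were left out. Doublets were then scored against simulated ones; the automatic threshold marked 6, 0 and 2 cells, so the highest scores were removed at 0.4% per 1000 barcodes, which took 61, 1037 and 141 cells. Cells of the 3 CD45-negative libraries were clustered together with scanpy 1.11.5 (counts scaled to 10000 per cell, 2000 variable genes without keratins, 30 components, 15 neighbours, Leiden resolution 1.0, seed 0), and epithelial cells again at resolution 2.0. Clusters were named from fixed non-keratin markers with a score of at least 0.5, a margin of at least 0.25 and at least 3 detected markers. The second resolution, these limits and the split of cycling clusters were chosen after seeing the data.

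Levels are UMIs per 1000000 UMIs of the cells summed (CPM), which in 5' counting does not depend on transcript length. Intervals are exact Poisson for levels, Clopper-Pearson for shares and conditional binomial for ratios. They cover counting error only, as there was 1 library per group and no test was made. Counts past 2-fold used genes with at least 20 UMIs in both libraries together, and compartments with at least 50 cells in each. The equal mix weights the compartments with at least 20 cells in each library by their mean share of UMIs. Promoters came from the RefSeq table and were searched on 300 bases. The ratio code was tested on simulated data. The members, the gene lists and the comparisons were chosen with earlier results of these data known. Named genes were the 6 highest keratins of a compartment and up to 4 each way in a comparison, ranked by the bound of the interval nearer to no change, from at least 50 UMIs and 50 CPM, with a fixed set always given; the largest of these are printed and the rest summarised. Alternatives to the filter, doublets, scaling, clustering, naming and limits were run.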

Additional observations from a re-analysis of the deposited data

Results flagged for a closer look

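In 7 cases of a keratin and a comparison, with 15 compartment values, the keratin lay above the other library in some compartments and below it in others by at least 1.5-fold; the difference between compartments was not tested, since each group had 1 library. Krt14 without alopecia over wild type had log2 ratios of -0.69 in the bulge class, 0.89 in cycling, matrix-type cells and 0.99 in suprabasal cells, the last of which was -0.04 at double the clustering resolution. Krt77 in the same comparison stood at 2.16 in the bulge class, from levels of 44.8 and 10.1 CPM, and at -0.94 in suprabasal cells. Krt79 stood at 1.15 in the bulge class and -1.18 in suprabasal cells, or -0.43 at double the resolution. Most of the suprabasal Krt79 and Krt17 lay in cluster 12, as given above.

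Krt16 with alopecia over wild type had log2 ratios of 2.02 in the bulge class and -1.01 in the upper follicle, or -0.21 with another clustering seed. Krt17 with alopecia over without stood at -0.71 in the inner root sheath class (-2.39 with keratin genes kept in the clustering) and 0.84 in suprabasal cells. Krt35 with alopecia over without stood at -1.39 in cycling, matrix-type cells and at 4.56 in the other cycling cells, where it had 64 and 17 UMIs. Krt35 with alopecia over wild type stood at -1.08 in cycling, matrix-type cells and 1.16 in the inner root sheath class, far below its level in the hair shaft class in each library.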

How the results depend on the processing

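No paired analysis was possible because each group had 1 library, and leaving out a replicate was not possible for the same reason. The member count was 42, against 45 at a minimum of 10 UMIs and 39 at a minimum of 50. The log2 ratio of the hair shaft keratins with over without alopecia, 3.14, was 3.07 with no cell filter, 3.06 with no doublet removal, 2.94 with trimmed-mean scaling, 2.64 as a mean over cells and 3.23 without the 5 highest cells of each gene. That of the inner root sheath keratins, 2.98, was 2.93, 2.89, 2.78, 2.93 and 2.92 in the same order. That of all members, -0.52, was -0.58 with no cell filter, -0.51 at 5% mitochondrial UMIs, -0.53 with no doublet removal, -0.53 scaled without keratins, -0.54 scaled without mitochondrial and ribosomal genes, -0.72 with trimmed-mean scaling and -0.49 as a mean over cells. The simple keratins, at 1.84, stood at 0.61 without the 5 highest cells of each gene.

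Members past the limit with alopecia over wild type numbered 9, and 19 at 1.5-fold, beside 3.87% and 10.3% of all genes. Krt75 in the inner root sheath class, without alopecia over wild type, reversed to 0.16 with keratin genes kept in the clustering. Krt16 in the upper follicle, with alopecia over wild type, reversed to 0.19 as a mean over cells. The cause was not tested. With compartments from the marker UMIs of each cell 11 of 101 log2 ratios changed sign, with a median shift of 0.28, with keratin genes kept in the clustering 9 of 124 (shift 0.08) and as a mean over cells 7 of 169 (shift 0.12). No sign changed in 170 ratios under the other scalings of the library total or the mitochondrial limits. Hair shaft levels without alopecia are limited by 24 cells.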

Other observations

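Keratin loci are also read outside the classes that name them. Krt23, listed with simple epithelia, was highest in the inner root sheath class, at 84.7 CPM in wild type, 49.7 without and 75.3 with alopecia, and in the upper follicle, at 72.6, 47.5 and 82.9 CPM. Krt90, a type II keratin of scarce counts, had 72.0% of its UMIs in the inner root sheath class. Krt27 and Krt28 of the inner root sheath list were found in the hair shaft class in all 3 libraries, Krt28 at 95, 56.8 and 118 CPM and Krt27 at 38.0, 37.8 and 45.9 CPM. Krt71, of the same list, is not among the 6 leading keratins of that class, in which Krt28 is the last.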
